A study of Homo sapiens with 8 samples.

Results

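The genes described here were the 8 human genes of the BCL2 family that either hold the mitochondrial outer membrane closed or perforate it. They were chosen by name and role, with earlier results of these data known, from the 63967 gene labels of the expression table. The survival genes were BCL2, BCL2L1 (BCL-XL), BCL2L2 (BCL-W), MCL1 and BCL2A1 (BFL-1), and the pore effectors were BAX, BAK1 and BOK. All 8 were found in the table, and 7 of them passed the filter of at least 1 FPKM in at least 2 libraries that was set for testing. BOK did not pass and is given by its values alone.

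In the mitochondrial pathway of apoptosis, BAX and BAK oligomerise in the outer membrane of the mitochondrion and release cytochrome c, which starts the caspase cascade. BOK is a relative of both that can act without the usual activators. The survival proteins bind the activated effectors and the BH3-only proteins, a group of stress sensors that includes BIM, PUMA and NOXA, and B cell lymphomas often depend on one or more of them.

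Bulk RNA-seq was carried out on Raji, a Burkitt lymphoma cell line sensitive to the CD20 antibody rituximab, and on Raji-4RH, its rituximab-resistant derivative. Each line was cultured for 24 h with DMSO, the vehicle, or with 3 µM chidamide, a histone deacetylase inhibitor, which gave 4 groups: Raji DMSO, Raji chidamide, Raji-4RH DMSO and Raji-4RH chidamide. Each group held 2 libraries, and the labels state neither a genotype change nor whether the replicates were separate cultures, so the p-values measure only the spread between these libraries. The cells were at passages 2 to 3 and were harvested by flow sorting, and the resistant line is a single derivative selected by repeated exposure to rituximab.

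The libraries held between 13991697 and 21193441 reads. All 8 B cell markers examined (among them CD79A, PAX5 and MS4A1) reached 1 FPKM or more in at least 1 library, and their summed level lay between 653 and 1191 FPKM. NK cell markers summed to at most 0.153 FPKM, plasma cell markers to at most 1.46 and T cell markers to at most 4.89. The sum of 4 T cell markers was higher with chidamide, at 0.815 to 1.05 FPKM against 0.0712 to 0.0782 in Raji and 3.96 to 4.89 against 0.646 to 0.891 in Raji-4RH, and that of 2 plasma cell markers was 1.29 to 1.32 against 0.89 to 0.96 in Raji and 1.46 against 0.145 to 0.15 in Raji-4RH. The sum of 4 myeloid markers also moved with treatment, from 1.03 to 1.04 FPKM in Raji DMSO to between 9.71 and 9.73 in Raji chidamide, and from between 0.917 and 0.991 in Raji-4RH DMSO to between 9.79 and 10.7 in Raji-4RH chidamide, with LYZ, ITGAM and CSF1R above 1 FPKM in at least 1 library and CD14 below it in all. The B cell sum was lower in Raji-4RH DMSO (773 to 814 FPKM) than in Raji DMSO (1151 to 1191 FPKM). With chidamide the B cell sum was 1018 to 1034 FPKM in Raji and 653 to 682 in Raji-4RH. Single markers did not all follow their sum. CD79A was lower and MS4A1 higher with chidamide in both lines. In Raji the plasma cell marker PRDM1 rose with chidamide, while SDC1 fell from 0.141 and 0.11 to 0.013 FPKM. CD3E was the only T cell marker to reach 1 FPKM. The part of these markers in the results below was not tested. In bulk RNA, fewer cells expressing a gene and less of its RNA per cell cannot be told apart.

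In the deposited table the gene labels and the values run out of step, and the value of a gene stands on the row of its label or a few rows below it. The values of BAX, BAK1 and BCL2L2 stood on the row of the label, those of MCL1 and BCL2A1 were 1 row below, and those of BCL2, BCL2L1 and BOK were 5 rows below. All values given here follow that placing.

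The genes lie on 8 chromosomes of GRCh38 (GENCODE release 29). BAX is at chr19:48954815-48961798 on the plus strand, BAK1 at chr6:33572547-33580293 on the minus strand and MCL1 at chr1:150574551-150579738 on the minus strand. BCL2 is at chr18:63123346-63320128, BCL2L1 at chr20:31664452-31723989 and BCL2A1 at chr15:79960889-79971446, all on the minus strand, and BCL2L2 is at chr14:23298790-23311759 and BOK at chr2:241551424-241574138, both on the plus strand. The values are gene-level sums over exons, so splice forms such as the long and short products of MCL1 and BCL2L1 were not separated. Whether reads were assigned by strand is not given in the sources used here. The antisense gene ABALON shares 43% of the exonic length of BCL2L1 and BOK-AS1 shares 7.41% of that of BOK, while the read-through gene BCL2L2-PABPN1 shares 19.4% of the exonic length of BCL2L2 on the same strand, so reads of these pairs may not be told apart. BAK1 has processed pseudogenes, of which BAK1P1 held 1 to 18 reads per library, against 632 to 1083 for BAK1.

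In the plot of values by library, each gene has a pattern of its own across the 4 groups. FPKM is scaled here to the joined length of all annotated exons of a gene, which can exceed the length of its transcripts. The order of different genes is therefore approximate, while the same gene can be compared across groups. In Raji DMSO the order of mean FPKM was MCL1 (72.7), BAX (60.0), BAK1 (20.2), BCL2L1 (8.93), BCL2L2 (5.16), BCL2A1 (2.21), BCL2 (0.879) and BOK (0.860), with overlapping libraries only for BCL2 and BOK. In Raji-4RH DMSO the order was MCL1 (55.9), BAK1 (21.2), BAX (12.2), BCL2L1 (6.93), BCL2A1 (1.83), BCL2L2 (1.10), BCL2 (1.03) and BOK (1.02), and again the libraries of neighbours overlapped only for BCL2 and BOK. MCL1 thus had the highest FPKM of the set in both lines, and BAX and BAK1 changed places. With chidamide BCL2A1 took the third place in Raji (35.1 FPKM) and the sixth in Raji-4RH (2.48 FPKM), and no neighbours in the order overlapped.

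**Figure D1:**
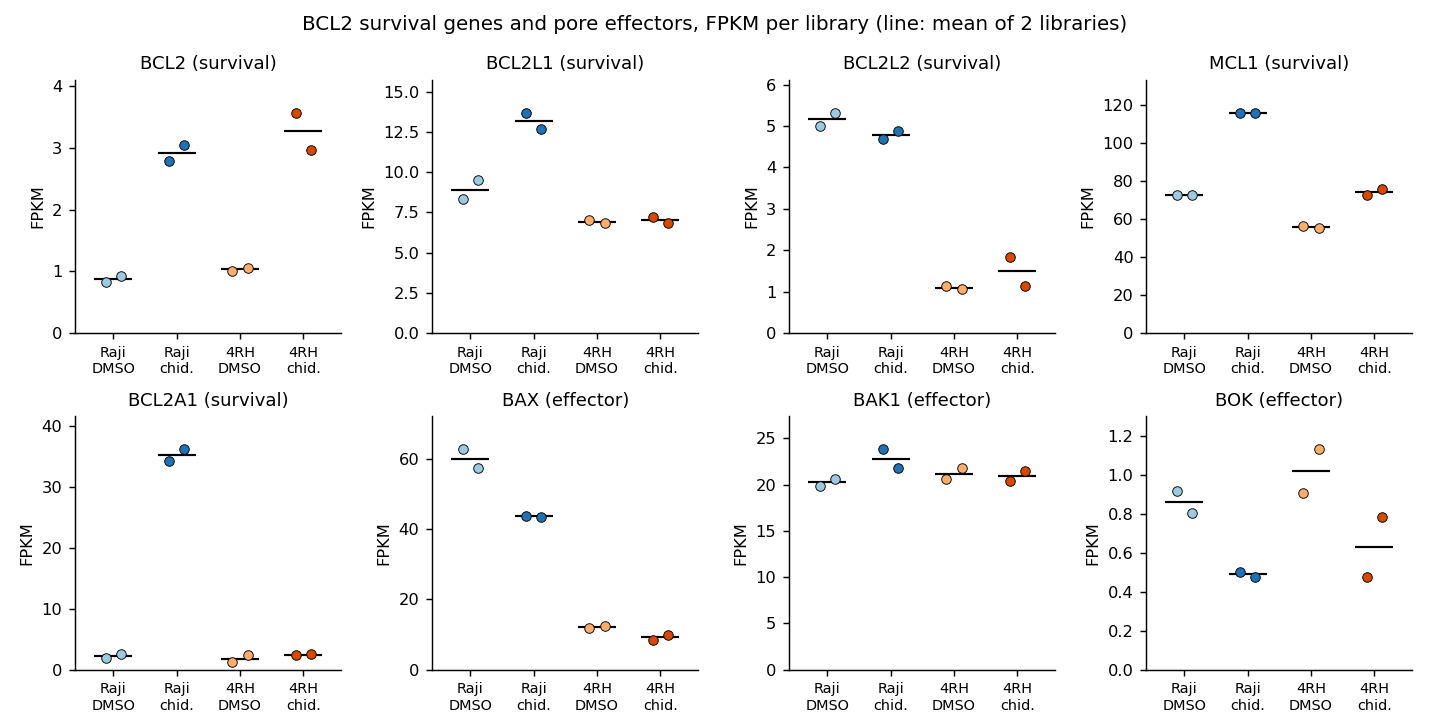
FPKM of each gene (y axis, from 0, a separate scale per panel) in the 8 libraries, by line and treatment (x axis; 4RH is Raji-4RH, chid. is chidamide); points are libraries and the line is the mean of 2. BAX is near 60 FPKM in Raji DMSO and near 12 in Raji-4RH DMSO, BAK1 stays between 19.9 and 23.8 FPKM throughout, and BCL2A1 is high only in the Raji chidamide libraries.

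The first question was how the survival genes responded to chidamide in each line. Changes are given as log2 fold changes of FPKM + 1 from limma with Benjamini-Hochberg adjustment over 10710 genes, and a change was called at an adjusted p under 0.05. This scale understates the change of genes near or below 1 FPKM. In Raji-4RH, 2 of the 5 survival genes rose and none fell, and with BAX 3 of the 7 tested genes were called, where 74.9% of all tested genes were (43.3% higher and 31.6% lower). In Raji, 4 of the 5 survival genes rose, and 6 of the 7 tested genes were called against 60.0% of all tested genes (31.5% higher and 28.5% lower). Each treated group was compared with the DMSO libraries of its own line.

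BCL2, the founding survival gene, had 0.831 and 0.928 FPKM in Raji with DMSO, 2.79 and 3.05 with chidamide, 1.01 and 1.06 in Raji-4RH with DMSO and 3.57 and 2.97 with chidamide. All 4 treated libraries lay above all 4 DMSO libraries, and both lines overlapped in treated level. BCL2 rose 3.16-fold in mean FPKM in Raji-4RH (log2 fold change 1.06, SE 0.079, adjusted p = 4.7e-06) and 3.32-fold in Raji (1.06, SE 0.079, adjusted p = 1.3e-05). The difference between both responses was 0.00 on the log2 scale, with a 95% interval of -0.25 to 0.26. With chidamide it was the lowest of the 5 survival genes in Raji and the third of them in Raji-4RH.

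MCL1 encodes a short-lived survival protein that is turned over by the proteasome. It had 72.7 and 72.6 FPKM in Raji with DMSO, 116 in both libraries with chidamide, 56.4 and 55.3 in Raji-4RH with DMSO and 72.9 and 76.0 with chidamide. The treated Raji-4RH libraries thus came to about the level of untreated Raji. MCL1 rose by a log2 fold change of 0.41 in Raji-4RH (SE 0.048, adjusted p = 7.9e-05) and of 0.66 in Raji (SE 0.048, adjusted p = 1.1e-05). The response was smaller in Raji-4RH by 0.26 on the log2 scale (95% interval of the difference -0.41 to -0.10, adjusted p = 0.0150). That difference was no longer called in 6 of 17 alternative settings, where its adjusted p reached 0.199.

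BCL2A1, an NF-κB target in lymphocytes, gave the largest change of the set. It had 1.91 and 2.51 FPKM in Raji with DMSO and 34.2 and 36.1 with chidamide, from 41 and 55 reads to 767 and 818 reads. In Raji-4RH it had 1.32 and 2.34 FPKM with DMSO and 2.36 and 2.59 with chidamide, from between 27 and 54 reads per library. Only the 2 treated Raji libraries were high. The 6 others lay between 1.32 and 2.59 FPKM, and in Raji-4RH the lower treated library was next to the higher DMSO library.

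BCL2A1 rose 15.9-fold in mean FPKM in Raji (log2 fold change 3.50, SE 0.158, adjusted p = 8.7e-07). The log2 fold change in Raji-4RH was 0.32, with a 95% interval of -0.04 to 0.68 (adjusted p = 0.0965). The responses of the lines differed by -3.18 on the log2 scale (SE 0.223, adjusted p = 2.3e-05), and this difference was called in all 17 alternatives that kept the placing of values. In Raji-4RH the change of BCL2A1 was called without Raji-4RH DMSO replicate 2 (0.58, adjusted p = 0.00414) and with the replicate number as a block (adjusted p = 0.0296).

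BCL2L1, whose long product is a survival protein of wide expression, had 8.31 and 9.54 FPKM in Raji with DMSO and 13.7 and 12.7 with chidamide. In Raji-4RH it had 7.03 and 6.83 FPKM with DMSO and 7.22 and 6.82 with chidamide. The groups of Raji did not overlap, and those of Raji-4RH did. BCL2L1 rose in Raji (log2 fold change 0.52, SE 0.074, adjusted p = 4.2e-04), the change in Raji-4RH was 0.02 with a 95% interval of -0.15 to 0.18, and the responses differed by -0.50 (SE 0.104, adjusted p = 0.00476).

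BCL2L2, a survival gene expressed in many tissues, did not pass the test for chidamide in either line. It had 5.00 and 5.32 FPKM in Raji with DMSO, 4.69 and 4.89 with chidamide, 1.13 and 1.06 in Raji-4RH with DMSO and 1.84 and 1.14 with chidamide. The intervals of the log2 fold change were -0.36 to 0.18 in Raji and -0.03 to 0.50 in Raji-4RH. The first Raji-4RH chidamide library stood above the other 3 of that line, and without the second the change was called (0.44, adjusted p = 6.9e-04), as was its difference from the response in Raji (adjusted p = 0.00205).

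The differences between the 2 responses were called for 3 of the 7 tested genes, BCL2A1, BCL2L1 and MCL1, against 48.8% of all tested genes (27.2% higher in Raji-4RH). All 3 are survival genes and each had the lower log2 fold change in Raji-4RH, the direction of a called difference in 21.7% of all tested genes. The interval of the difference was -0.06 to 0.70 for BCL2L2, -0.18 to 0.33 for BAX and -0.38 to 0.02 for BAK1.

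**Figure D2:**
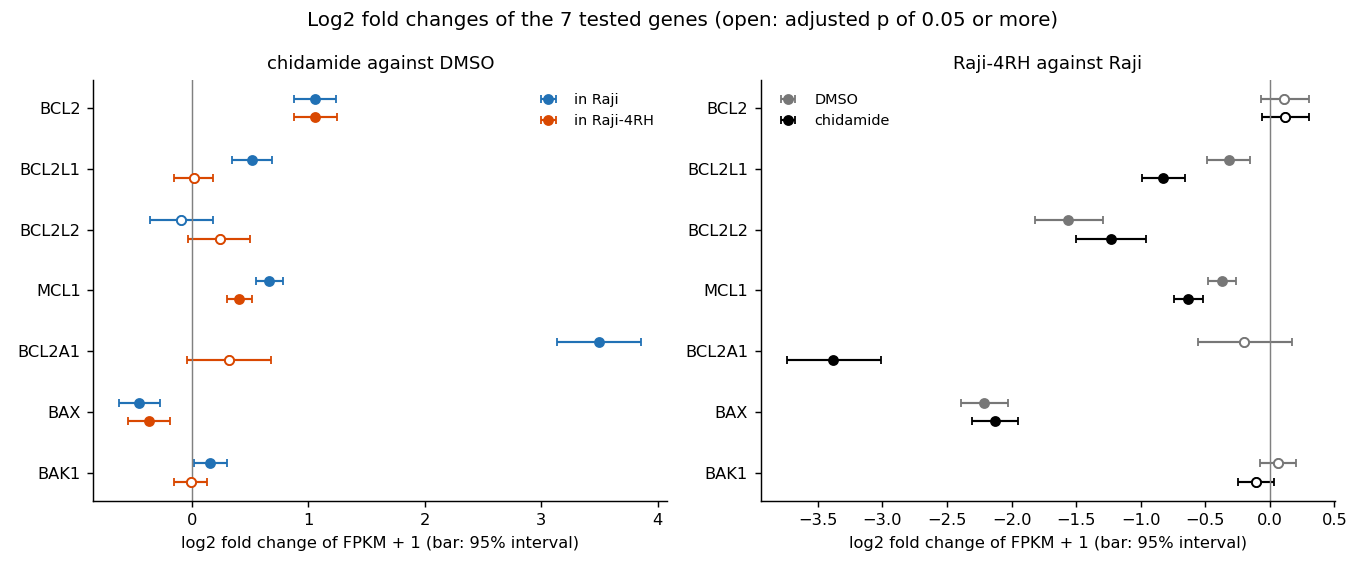
Log2 fold change of FPKM + 1 (x axis) of the 7 tested genes (y axis), for chidamide against DMSO in each line (left) and for Raji-4RH against Raji under each treatment (right); points are estimates, bars are 95% intervals and open points did not pass the test. BCL2A1 in Raji (3.50) is far from its Raji-4RH value (0.32), BCL2 is at 1.06 in both lines, and BAX is more than 2 log2 units lower in Raji-4RH under either treatment.

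The pore effectors were compared in the same way. BAX, whose product moves from the cytosol to the mitochondrion on activation, had 62.7 and 57.3 FPKM in Raji with DMSO and 43.9 and 43.6 with chidamide. In Raji-4RH it had 12 and 12.4 FPKM with DMSO and 8.48 and 9.99 with chidamide. None of the 4 groups overlapped. BAX fell with chidamide in both lines, by 0.37 on the log2 scale in Raji-4RH (SE 0.078, adjusted p = 0.00238) and by 0.45 in Raji (SE 0.078, adjusted p = 0.00131).

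BAK1, whose product resides in the outer membrane, had 19.9 and 20.6 FPKM in Raji with DMSO, 23.8 and 21.8 with chidamide, 20.6 and 21.8 in Raji-4RH with DMSO and 20.4 and 21.5 with chidamide. The 8 libraries lay within a narrow range, and the groups of Raji-4RH overlapped while those of Raji did not. The log2 fold change was -0.01 in Raji-4RH (95% interval -0.15 to 0.13), and quantile normalization turned it to 0.19 (adjusted p = 0.0187). In Raji it was 0.16 (SE 0.061, adjusted p = 0.0476), a call that was lost in 12 of 19 alternative settings, with each of 5 libraries left out in turn among them, and whose adjusted p reached 0.302 without Raji chidamide replicate 1.

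BOK had 0.915 and 0.806 FPKM in Raji with DMSO, 0.501 and 0.478 with chidamide, 0.905 and 1.13 in Raji-4RH with DMSO and 0.475 and 0.781 with chidamide. Between 18 and 65 reads per library stood behind these values. The treated libraries were the lower ones in each line, and no test was made.

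The second question was how the resistant line differed from its parent. With DMSO, 4 of the 7 tested genes were called, all of them lower in Raji-4RH (BAX, BCL2L2, MCL1 and BCL2L1), against 73.6% of all tested genes, 32.4% lower and 41.2% higher. With chidamide 5 of the 7 were called, again all lower in Raji-4RH, against 79.3% of all tested genes, 35.0% lower and 44.3% higher. The added gene was BCL2A1. These comparisons use the same libraries as the comparisons of treatment and are not independent of them.

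BAX was 4.92-fold lower in mean FPKM in Raji-4RH DMSO than in Raji DMSO (log2 fold change -2.21, SE 0.078, adjusted p = 5.1e-08). With chidamide it was 4.74-fold lower (-2.13, SE 0.078, adjusted p = 5.4e-08). The value with DMSO lay between -2.40 and -2.10 in 19 alternative settings. Among the 10710 genes it ranked 121st from the lowest in that comparison.

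BCL2L2 was 4.71-fold lower in Raji-4RH with DMSO (log2 fold change -1.56, SE 0.117, adjusted p = 5.0e-06) and 3.21-fold lower with chidamide (-1.23, SE 0.117, adjusted p = 1.6e-05). PABPN1, its neighbour and partner in the read-through gene, had a log2 fold change of -1.14 with DMSO. MCL1 was 1.30-fold lower with DMSO (-0.37, SE 0.048, adjusted p = 1.4e-04) and 1.56-fold lower with chidamide (-0.63, SE 0.048, adjusted p = 4.2e-06). BCL2L1 was 1.29-fold lower with DMSO (-0.32, SE 0.074, adjusted p = 0.00408) and 1.88-fold lower with chidamide (-0.83, SE 0.074, adjusted p = 1.1e-05).

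BCL2A1 was 14.2-fold lower in Raji-4RH than in Raji with chidamide (log2 fold change -3.38, SE 0.158, adjusted p = 2.1e-07). With DMSO its interval was -0.56 to 0.17. The log2 fold change with DMSO was -0.46 without Raji-4RH DMSO replicate 2 and 0.065 without Raji-4RH DMSO replicate 1. Its sign thus depended on which library was left out. BCL2 and BAK1 were not called between the lines. For BCL2 the interval was -0.07 to 0.30 with DMSO and -0.06 to 0.30 with chidamide, and without Raji-4RH chidamide replicate 2 the latter was called higher in Raji-4RH (0.22, adjusted p = 0.0244). For BAK1 it was -0.08 to 0.20 with DMSO and -0.25 to 0.03 with chidamide, and the latter was called lower in Raji-4RH after median centring (adjusted p = 0.0161) and with voom (adjusted p = 0.0177).

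The effectors BAX and BAK1 therefore differed in their contrast between the lines. The sequences upstream of both are shown because they are the reference promoters of these genes. They are the stretches before the first annotated exon in GENCODE, taken from the RefSeq promoter windows of GRCh38.p14, 190 bases for BAX (chr19:48954625-48954814, plus strand) and 233 bases for BAK1 (chr6:33580294-33580526, minus strand). Capitals mark the E-box CACGTG, the GC box GGGCGG, the CCAAT box CCAAT and the TATA box TATAAA, each on either strand.
BAX: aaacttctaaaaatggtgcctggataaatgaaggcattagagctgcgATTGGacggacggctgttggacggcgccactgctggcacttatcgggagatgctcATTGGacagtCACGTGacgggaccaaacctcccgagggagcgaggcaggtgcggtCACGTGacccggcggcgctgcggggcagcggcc
BAK1: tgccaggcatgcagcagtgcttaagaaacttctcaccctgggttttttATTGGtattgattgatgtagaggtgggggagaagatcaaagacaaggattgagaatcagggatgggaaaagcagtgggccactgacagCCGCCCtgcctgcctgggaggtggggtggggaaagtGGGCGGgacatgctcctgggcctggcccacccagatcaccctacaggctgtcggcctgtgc
The motifs were chosen after the sequences had been seen, and a match is a description only.

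RefSeq windows were found for 6 of the 8 genes (BCL2, BCL2L1, BCL2A1, BAX, BAK1 and BOK). In the 250 bases before the RefSeq start, BAX held 4 copies of CACGTG, of which 2 lie in the stretch above. At least 1 copy occurred in 6.34% of 35116 promoters and 4 or more in 5 of them, BAX included, and none of the other 5 genes had one. BAX also held 2 CCAAT boxes and 1 GC box, and BAK1 held 1 CCAAT box and 2 GC boxes. CCAAT boxes occurred in 32% and GC boxes in 42.6% of the promoters.

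BCL2A1, the gene with the largest response, had the lowest GC content of the 6, 38.8% in the 250 bases (chr15:79971197-79971446), and 10.8% of all promoters were lower. It held 2 CpG dinucleotides, against 25 for BAX and 24 for BCL2, and 1 TATA box, a motif found in 10.7% of the promoters and present 2 times in 1 of the 2 windows of BCL2L1. The median over all promoters was a GC content of 58% and 11 CpG dinucleotides.

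The genes around BAX on chromosome 19 were examined with the value of BAX known. Within 500 kb on either side, 33 genes had been tested, and their median log2 fold change between the lines with DMSO was -0.38, against 0.063 over all tested genes. Of these, 24 were called, 19 lower and 5 higher in Raji-4RH, where 73.6% of all tested genes were called, 32.4% lower and 41.2% higher. The lowest was CA11 at -2.09, and the highest was KCNJ14 at 1.29. A log2 fold change of -1 or less was seen in 5 of the 33, among them CD37 (-1.33) and PIH1D1 (-1.22), and in 7.37% of all tested genes. The corresponding median was -0.27 over 15 genes around BOK (9 called lower, 3 higher, 3 at -1 or less), -0.22 over 4 around BCL2A1, -0.09 over 8 around BAK1, 0.16 over 16 around BCL2L2, 0.24 over 3 around BCL2, 0.32 over 24 around MCL1 and 0.69 over 10 around BCL2L1.

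**Figure D3:**
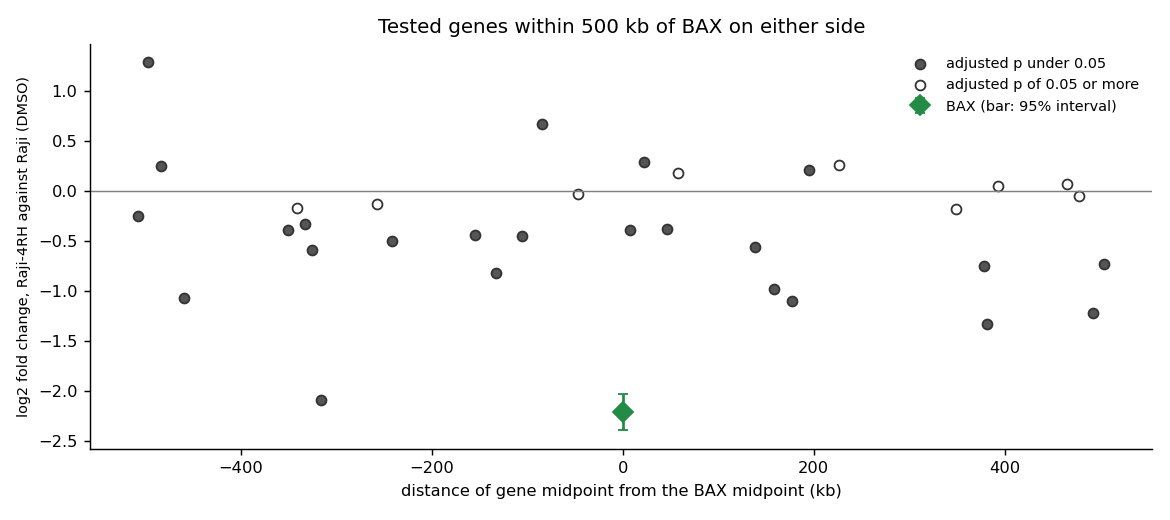
Log2 fold change of FPKM + 1, Raji-4RH DMSO against Raji DMSO (y axis), of BAX (diamond, with its 95% interval) and of the 33 tested genes within 500 kb on either side (circles, filled where the adjusted p was under 0.05), against the distance between gene midpoints in kb (x axis). BAX at -2.21 is below all 33 neighbours, of which 19 were called lower and 5 higher.

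The balance between the groups of genes was described by summing FPKM over the 5 survival genes and over the 3 effectors. The survival sum was 88.8 and 90.9 FPKM in Raji with DMSO, 171 and 173 with chidamide, 66.9 and 66.6 in Raji-4RH with DMSO and 87.9 and 89.5 with chidamide. MCL1 made up between 67.2% and 84.9% of it. In Raji the sum nearly doubled with chidamide through MCL1 and BCL2A1, and in Raji-4RH it came to the level of untreated Raji.

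The effector sum was 83.5 and 78.7 FPKM in Raji with DMSO, 68.2 and 65.9 with chidamide, 33.4 and 35.3 in Raji-4RH with DMSO and 29.4 and 32.2 with chidamide. BAX made up 75.1% and 72.8% of it in Raji DMSO and 35.7% and 35.2% in Raji-4RH DMSO. The ratio of BAX to BAK1 was 3.15 and 2.79 in Raji with DMSO, 1.85 and 2.00 with chidamide, 0.581 and 0.572 in Raji-4RH with DMSO and 0.415 and 0.465 with chidamide. By FPKM, BAX was the larger part of the effector sum in Raji, and BAK1 was the larger part in Raji-4RH. Sums and ratios across genes depend on the joined exon lengths, 2587 bases for BAX and 2212 for BAK1. Which effector had more transcripts in a line was therefore not settled.

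The ratio of survival to effector sum was 1.11 ± 0.0656 (SD, n = 2 libraries) in Raji with DMSO, 2.56 ± 0.0808 with chidamide, 1.94 ± 0.0823 in Raji-4RH with DMSO and 2.88 ± 0.154 with chidamide. No 2 groups overlapped. An exact two-sided permutation test of 2 libraries against 2 gave p = 0.333 for each of the 4 comparisons. That is the smallest p this design allows, so the test cannot tell the groups apart. The genes summed were also chosen with earlier results of these data known, and the ratios are a description only. Without MCL1 the ratio was 0.212, 0.837, 0.317 and 0.465 in the same order, so that the group with the highest ratio was then Raji chidamide. Sums of transcripts say nothing of protein levels, which were not measured here.

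**Figure D4:**
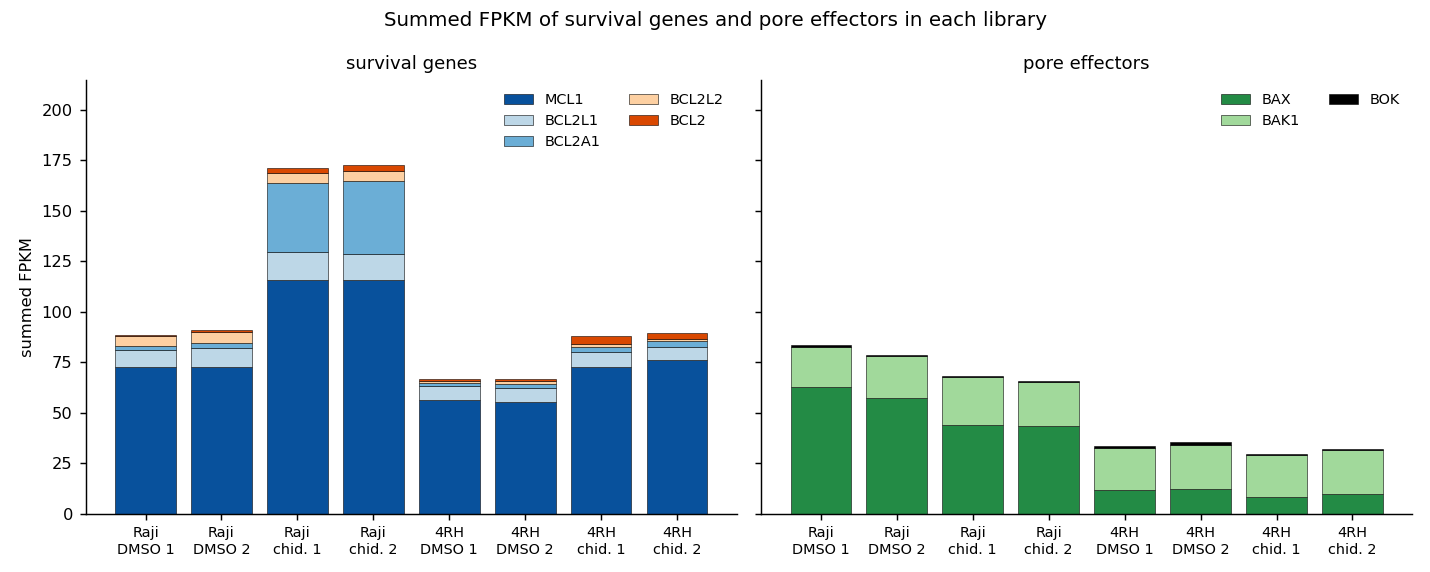
Summed FPKM (y axis, from 0) of the 5 survival genes (left) and the 3 pore effectors (right) in each of the 8 libraries (x axis), stacked by gene; 1 bar is 1 library. The survival sum is highest in Raji chidamide (171 and 173 FPKM), and the effector sum falls from 83.5 and 78.7 FPKM in Raji DMSO to 33.4 and 35.3 in Raji-4RH DMSO, where BAX is the smaller part.

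The survival proteins and effectors are regulated by the BH3-only proteins, and 8 genes of that group were examined. In Raji-4RH all 8 were called with chidamide, 5 higher and 3 lower, and in Raji 7 were, 5 higher and 2 lower, beside 74.9% and 60.0% of all tested genes. The median log2 fold change of the 8 was 0.71 in Raji-4RH and 0.57 in Raji, against 0.093 and 0.017 over all tested genes. BMF, BBC3, HRK, PMAIP1 and BCL2L11 were higher and BID and BIK lower in both lines, and BAD was called lower in Raji-4RH alone, a difference between the lines that was itself not called (adjusted p = 0.578).

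BMF, a sensor linked to the cytoskeleton, had 1.42 and 1.53 FPKM in Raji with DMSO, 12.2 and 12.9 with chidamide, 12.9 and 12.3 in Raji-4RH with DMSO and 46.7 and 51.7 with chidamide. Untreated Raji-4RH was thus at the level of treated Raji, and treatment raised it further. BMF rose 3.90-fold in Raji-4RH (log2 fold change 1.88, SE 0.066, adjusted p = 1.1e-07) and 8.50-fold in Raji (2.45, SE 0.066, adjusted p = 1.5e-07), and it was 8.55-fold higher in Raji-4RH than in Raji with DMSO (2.46, SE 0.066, adjusted p = 1.3e-08).

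PMAIP1 encodes NOXA, which binds MCL1 and BFL-1 by preference. It had 34.6 and 33.2 FPKM in Raji with DMSO, 76.4 and 72.2 with chidamide, 72.4 and 70.9 in Raji-4RH with DMSO and 136 and 129 with chidamide. As for BMF, the level of Raji-4RH without treatment was close to that of Raji with it. The log2 fold change with chidamide was 0.88 in Raji-4RH (SE 0.056, adjusted p = 1.9e-06) and 1.11 in Raji (SE 0.056, adjusted p = 1.5e-06).

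BBC3, which encodes PUMA, had 4.33 and 3.72 FPKM in Raji with DMSO, 12.1 and 12 with chidamide, 4.49 and 5.39 in Raji-4RH with DMSO and 12.1 and 15.2 with chidamide, and the 4 treated libraries were all above the 4 DMSO libraries. Its log2 fold change was 1.29 in Raji-4RH (adjusted p = 1.3e-05) and 1.38 in Raji (adjusted p = 2.2e-05). HRK rose by a log2 fold change of 1.03 in Raji-4RH (adjusted p = 2.8e-06) and 0.50 in Raji, a difference of 0.53 between the responses (adjusted p = 0.00283). BCL2L11, which encodes BIM, rose by 0.54 in Raji-4RH and 0.64 in Raji.

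BID, which links death receptors to the mitochondrion, fell with chidamide, by 0.89 on the log2 scale in Raji-4RH (SE 0.060, adjusted p = 2.6e-06) and by 0.53 in Raji (SE 0.060, adjusted p = 1.2e-04). It had 9.01 and 8.34 FPKM in Raji with DMSO, 5.73 and 5.65 with chidamide, 16.4 and 17.3 in Raji-4RH with DMSO and 8.41 and 8.85 with chidamide, so that treated Raji-4RH overlapped with untreated Raji. BIK fell by 0.54 in Raji-4RH and by 0.66 in Raji. The responses of 4 of the 8 genes differed between the lines, with a larger rise of HRK and a larger fall of BID in Raji-4RH (difference -0.36, adjusted p = 0.00853) and a smaller rise of BMF (-0.57, adjusted p = 0.00153) and PMAIP1 (-0.23, adjusted p = 0.0384), where 48.8% of all tested genes differed. Between the lines with DMSO, BMF, PMAIP1, BID and BIK were higher in Raji-4RH and HRK was lower, 5 of 8 called beside 73.6% of all tested genes.

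**Figure D5:**
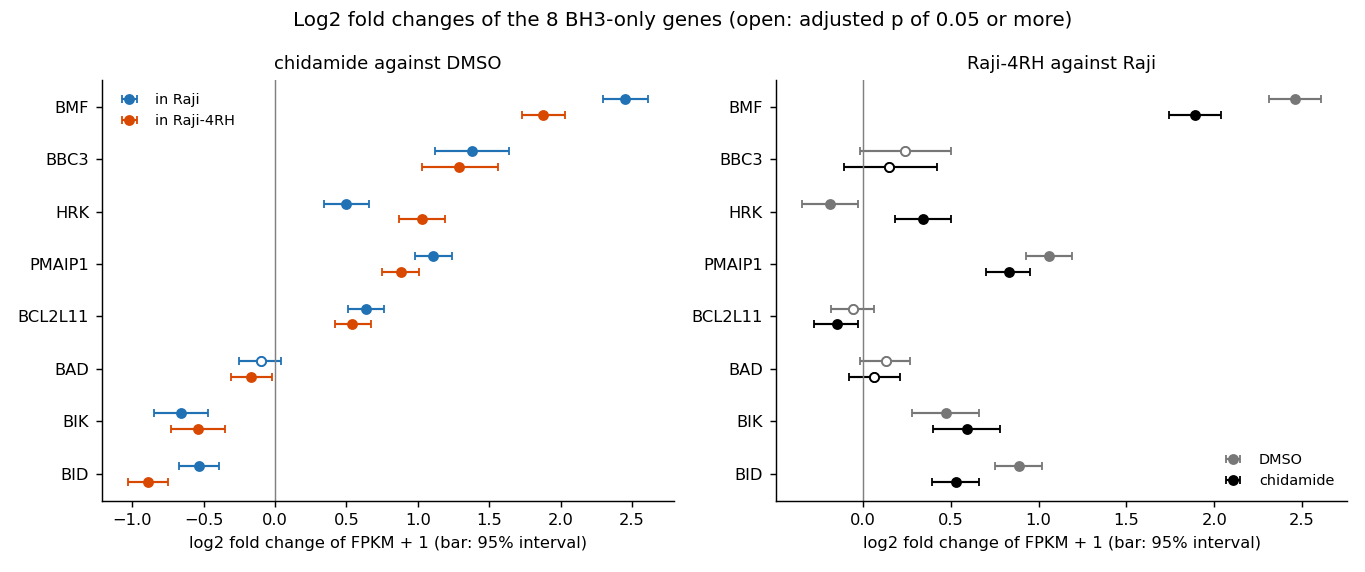
Log2 fold change of FPKM + 1 (x axis) of the 8 BH3-only genes (y axis), for chidamide against DMSO in each line (left) and for Raji-4RH against Raji under each treatment (right); points are estimates, bars are 95% intervals and open points did not pass the test. BMF has the largest values in both panels (2.45 with chidamide in Raji and 2.46 between the lines with DMSO), and BID and BIK are below 0 with chidamide and above 0 between the lines.

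The other genes examined were 5 further BCL2-like genes, 7 genes listed as outer membrane partners, 10 released factors and caspase genes and 6 genes for the ubiquitin control of MCL1. Together with the BH3-only genes, 34 of 36 were placed and 30 passed the filter, and VDAC1 and MARCH5 are not analysed here. In Raji-4RH 21 of the 30 were called with chidamide, 11 higher and 10 lower, and in Raji 19 were, 12 higher and 7 lower. The responses differed in 10, of which 8 had the lower value in Raji-4RH. Between the lines with DMSO 23 were called, 15 higher and 8 lower in Raji-4RH, and with chidamide 27 were, 17 higher and 10 lower. These shares of 70.0%, 63.3%, 33.3%, 76.7% and 90.0% stand beside 74.9%, 60.0%, 48.8%, 73.6% and 79.3% of all tested genes.

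Of the outer membrane partners, MTCH2, a receptor for tBID, fell by 0.69 on the log2 scale in Raji-4RH with chidamide (SE 0.059, adjusted p = 1.0e-05), and the channels VDAC2 and VDAC3, of which VDAC2 binds BAK, fell by 0.31 (adjusted p = 0.00173) and 0.28 (adjusted p = 0.00647). TMBIM6, also called BAX inhibitor 1, was kept in this list although its product lies in the membrane of the endoplasmic reticulum. TMBIM6 rose by 0.37 (SE 0.062, adjusted p = 6.5e-04). VDAC3 was 2.12-fold higher in Raji-4RH than in Raji with DMSO (log2 fold change 1.04, adjusted p = 2.6e-06). Of the 6 tested partners, 4 were called with chidamide in Raji-4RH and 2, MTCH2 and VDAC2, in Raji, which is 66.7% and 33.3% beside 74.9% and 60.0% of all tested genes.

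Of the factors downstream of the pore, APAF1, the scaffold of the apoptosome, rose 2.39-fold in Raji-4RH with chidamide (log2 fold change 1.04, SE 0.059, adjusted p = 9.9e-07) and 1.99-fold in Raji. HTRA2, which encodes a mitochondrial serine protease, rose by 0.14 (adjusted p = 0.0447) in Raji-4RH. ENDOG, a mitochondrial nuclease, fell by 0.87, AIFM1 by 0.58 and the caspase inhibitor XIAP by 0.26. CYCS, the gene of cytochrome c, had an interval of -0.26 to 0.13 in Raji-4RH and -0.19 to 0.20 in Raji. All 10 were called between the lines with DMSO, 6 higher and 4 lower in Raji-4RH, beside 73.6% of all tested genes, and CASP9 (0.731 of the level in Raji) and HTRA2 (0.555) were among the lower ones.

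Of the genes for the ubiquitin control of MCL1, the deubiquitinase gene USP9X rose by 0.52 on the log2 scale in Raji-4RH with chidamide (SE 0.060, adjusted p = 6.9e-05) and the ligase gene HUWE1 by 0.27 (SE 0.057, adjusted p = 0.00275). FBXW7 and BTRC, both substrate receptors of ubiquitin ligases, were not called there, and both were lower in Raji-4RH than in Raji with DMSO (-0.60 and -0.85). BCL2L12 fell by 0.91 with chidamide in Raji-4RH (SE 0.066, adjusted p = 4.2e-06) and was 2.75-fold lower than in Raji with DMSO.

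Finally, the genes whose FPKM followed each tested gene most closely over the 8 libraries were listed, among those with a mean of at least 5 FPKM. The libraries form 4 groups of 2, so the coefficients describe mainly the order of 4 group means and carry no p. BAX was followed by RNF166 and POU2AF1 (Pearson r = 0.9979 for both), the latter a B cell coactivator with group means of 85.9, 76.8, 40.1 and 34.0 FPKM in the order Raji DMSO, Raji chidamide, Raji-4RH DMSO and Raji-4RH chidamide. BCL2A1 was followed by CXCL10 (r = 0.9905), an interferon-induced chemokine gene with a group mean of 200 FPKM in treated Raji and of at most 1.49 FPKM in the other 3 groups, and by DUSP22 (r = 0.9883). MCL1 was followed by ARFGEF1 (r = 0.9967) and SP140 (r = 0.9953), BCL2 by GM2A (r = 0.9946) and AFF1 (r = 0.9913), and BCL2L2 by PTP4A2 (r = 0.9981) and WRB (r = 0.9974). BCL2L1 was followed by RNF169 (r = 0.9900) and CRYZ (r = 0.9891). For BAK1, which varied least, the closest were HARS2 (r = 0.8842) and ASAP1 (r = 0.8684).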

How the data were processed

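RNA-seq of 8 libraries of Raji and Raji-4RH cells, 2 per group, was analysed from the deposited gene table, in which the authors gave expression in FPKM with a length for each gene. The submitters' processing notes name HISAT2 2.0.5, SAMtools 1.7, HTSeq 0.9.1, DESeq2 1.22.2 and hg38, with no role for each. The FPKM were multiplied by length, and 100% of nonzero values gave whole reads (tolerance 0.02 reads). The table has 63967 rows, of which the last 662 repeat the first 662, and its values run below the labels by a shift that grows down the table. For 18143 labels, holding 90.75% to 93.22% of the reads, the values were placed by fixed blocks of rows, each with its own shift. The reads were then scaled to the length given for the label. The lengths follow the labels, so they did not place the values. As a check, a level was predicted for each neighbouring label from its description, gene type, symbol prefix and length. The prediction was learned on the first block of the same table. For all 8 members it correlated best with the reads of the neighbours at the shift used (r from 0.469 to 0.715). The member itself was left out, so the check is of the block and not of the single row.

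Tests used log2(FPKM + 1), with a filter of 1 FPKM in 2 libraries, in limma 3.58.1 (R 4.3.3) with trend, 1 fit over the 4 groups and Benjamini-Hochberg adjustment over 10710 genes. Replicate numbers were not treated as pairs in the main fit. The differences between replicates correlated across groups from -0.279 to 0.166, which does not settle whether libraries shared a batch. The members and gene lists were chosen with earlier results of these data known. From each list, genes called in Raji-4RH with chidamide were named by the largest change, up to 3 in each direction. PMAIP1, BCL2L11, CYCS, PABPN1, CA11, KCNJ14, CD37, PIH1D1, CASP9, FBXW7 and BTRC were named after their values were seen. Alternatives were other scalings, filters, pseudocounts, a voom fit on the recovered reads, a replicate block, the rows as deposited and leaving out each library. RefSeq promoter windows came from a GRCh38.p14 table. Python 3.11.15 was used. Some genes of the lists are not reported here.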

Additional observations from a re-analysis of the deposited data

Results flagged for a closer look

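The responses to chidamide of 3 survival genes differed between the lines by the interaction term of the limma fit. These were 42.9% of the 7 tested members, beside 48.8% of all tested genes. For BCL2A1 the response in Raji-4RH minus that in Raji was -3.18 on the log2 scale, for BCL2L1 it was -0.50 and for MCL1 it was -0.26. BCL2A1 and BCL2L1 rose in Raji and were not called in Raji-4RH, while MCL1 rose in both lines and by less in Raji-4RH. The difference for MCL1 was not called without either Raji chidamide library or either Raji-4RH DMSO library (adjusted p from 0.0503 to 0.0698).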

How the results depend on the processing

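Of 703 values of single genes under alternatives, 630 kept their direction and side of the threshold, 33 lost a call, 9 gained one and 31 changed sign. BAX and BCL2L2 between the lines, BCL2 with chidamide in both lines and BCL2A1 in Raji changed in none that kept the placing. The order of the counts below is chidamide in Raji-4RH, chidamide in Raji, difference of responses, lines with DMSO and lines with chidamide. At a log2 fold change of at least 1, the 7 tested members gave 1, 2, 1, 2 and 3 calls. The 30 other apoptosis genes gave 4, 3, 0, 4 and 2. Of all 10710 tested genes, 1620, 560, 676, 1703 and 2228 were called. Without that limit 8022, 6421, 5231, 7882 and 8495 of the 10710 were called. With genes whose values share the row of the label, only BAX, BAK1 and BCL2L2 remained of the members. They gave 1, 2, 0, 2 and 2 calls. BCL2A1, BCL2L1 and MCL1 were not in this setting, so it does not bear on their difference of responses. The other apoptosis genes that remained gave 13, 11, 6, 11 and 13 calls. Of the 4331 genes tested there, 3326, 2702, 2178, 3258 and 3463 were called.

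With rows as deposited, which reads another gene's values, 2 members were called with chidamide in Raji and 0 for the difference of responses. Of all 10726 genes tested there, 6438 and 5241 were called. Signs changed with these rows for BCL2L1 with chidamide (-0.26 in Raji-4RH, -0.19 in Raji), for MCL1 (difference 0.13, between lines 0.83 and 0.95) and for BCL2A1 (difference 0.15). Quantile normalization changed the sign with chidamide in Raji-4RH of BCL2L1 (-0.073), BCL2L2 (-0.41), BCL2A1 (-0.15) and BAK1 (0.19, adjusted p = 0.0187), of the difference of responses for BCL2 (-0.075), BCL2L2 (-0.24) and BAX (-0.067), and between lines of BCL2 (-0.10 with DMSO, -0.18 with chidamide) and BAK1 (0.002 with chidamide). In Raji-4RH it moved the median of all genes with chidamide from 0.093 to -0.022 and the share of higher calls from 57.9% to 47.8%, while without a filter the share was 68.2%. Median centring gave -0.061 for BCL2L1 in Raji-4RH, and the difference for BCL2 was -0.031 with it, -0.062 with a pseudocount of 0.1 and -0.083 with voom, which gave -0.036 for BAK1 between lines with DMSO. The cause of these changes was not tested.

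Leaving out 1 library gave 6 to 14 other genes for the difference of responses, with 6 without Raji chidamide replicate 1 or Raji-4RH DMSO replicate 2. It gave -0.10 to 0.10 for the difference of BCL2 (below 0 in 4 of 8), -0.031 to 0.18 for that of BAX, -0.021 to 0.052 for BCL2L1 (also -0.002) and -0.053 to 0.024 for BAK1 in Raji-4RH with chidamide (also 0.020), and -0.46 to 0.065 for BCL2A1 between lines with DMSO. The replicate block gave 4 members called in Raji-4RH with chidamide, with BCL2A1 added, and 5 in Raji, without BAK1 (adjusted p = 0.0728). The crossed pairing gave 3 and 6. Of all 10710 tested genes, the replicate block called 7886 and 6183 and the crossed pairing 8115 and 6499. The ratios of survival to effector sum without MCL1 were 0.212, 0.837, 0.317 and 0.465. Genes at few reads, such as BOK and BCL2A1, have the least precise values.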
